A study of Oryza sativa Indica Group with 6 samples.

Results

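Two-week-old seedlings of the rice cultivar 3037 (*Oryza sativa* ssp. *indica*), which is the wild type, and of its semi-dwarf mutant *sd37* were profiled with the rice GeneChip of Affymetrix, 3 times per genotype and each time on an array of its own. The *sd37* mutant arose in the 3037 background and carries a point mutation in *CYP96B4*, a cytochrome P450 gene. All seedlings were grown from bleach-treated seeds in MS pots in a phytotron with 16 h of light at 26°C and 8 h of dark at 18°C, and no further treatment was named for either genotype. The arrays described here are the 2 arrays of replicate 1, 1 from 3037 and 1 from *sd37*, set against the 4 arrays of replicates 2 and 3, so that all 6 arrays of the study were used. This grouping was chosen from the signals themselves, after replicate 1 had been seen to differ from the other arrays in both genotypes. All differences between replicate 1 and the other arrays are therefore descriptions and carry no p-value. The labels name all 6 samples only as seedlings and give no age, harvest time, organ or growth condition that differs between replicates.

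A rice seedling makes leaves and roots from its meristems until a mobile signal, the florigen encoded by *Hd3a*, reaches the shoot apex and turns on MADS-box genes of the *MADS14* and *MADS15* type. The circadian clock sets the hour at which many transcripts peak, with *CCA1* near dawn, the pseudo-response regulator genes in succession through the day, and *PRR1* (the rice *TOC1*) toward evening. Genes of chlorophyll synthesis and light harvesting follow both light and the clock, and heat shock, cold-responsive and drought-responsive genes are held low in unstressed plants.

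The signals were intensities on a linear scale in arbitrary units. The mean of each array after removal of the outer 2% on either side was 500.1, so the arrays had been brought to one common level. Replicate 1 nevertheless had the higher median signals, 51 in 3037 and 56.2 in *sd37* against 32.3 to 34.3 on the other arrays, and fewer values under 1, namely 168 and 89 against 1198 to 1566. The added bacterial control transcripts were brighter in replicate 1 as well. The mean signal of the BioB probe sets was 941 and 1036 in replicate 1 and 511 to 584 elsewhere, and that of CreX was 40495 and 46198 against 21835 to 23725. The ratio of 3′ to 5′ actin signal was 14.0 and 10.9 in replicate 1 and lay between 11.7 and 15.7 elsewhere, whereas that of GAPDH was 0.203 and 1.11 in replicate 1 and 1.7 to 6.62 elsewhere, with no overlap. That of elongation factor 1α was 0.468 and 0.307 in replicate 1 and 0.0989 to 0.595 elsewhere. The log2 signals of both replicate 1 arrays correlated with each other with r = 0.898, arrays of replicates 2 and 3 with r = 0.92 to 0.926, and arrays across this divide with r = 0.863 to 0.882. The part that array brightness and RNA quality play in the differences below was not tested. It also cannot be told apart in these whole-seedling samples whether a lower signal reflects fewer cells of a type or less RNA in each cell.

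For each probe set, log2 signals were fitted with genotype and replicate 1 as terms, and a difference is the fitted replicate 1 level minus that of replicates 2 and 3, on the log2 scale, with its standard error (SE; 2 arrays against 4). A probe set is called higher or lower where the difference was at least 2-fold and both replicate 1 arrays lay beyond all 4 others. Of 57258 probe sets, 11400 were higher in replicate 1 (19.9%) and 4637 were lower (8.1%). The number of higher calls rested largely on dim probe sets: 7519 of the 11400 had a mean signal under 100 in the brighter group, where the median SE was 0.98. Among 22891 probe sets with a mean signal of at least 100 in the brighter group, 3881 were higher (17%) and 3252 were lower (14.2%), with a median difference of -0.06 and a median SE of 0.18. The direction split depended on how the arrays were scaled. Of all called probe sets, 71.1% were higher with the deposited scaling, 49.6% after quantile normalization and 30.2% when all arrays were set to the same median, and the median over all probe sets was 0.39, -0.01 and -0.28.

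Genes were compared by their probe set of highest mean log2 signal. Of 17905 genes, 2672 were higher in replicate 1 (14.9%) and 2114 were lower (11.8%), with a median difference of -0.02. This median moved to -0.10 with quantile normalization and to -0.69 with equal medians, so a list is described below relative to it wherever its direction depends on the scaling. Over all 57258 probe sets the difference in 3037 and that in *sd37* had r = 0.394, as a description across probe sets that share arrays and are not independent replicates. The grouping had been chosen on a difference seen in both genotypes, so nothing is read from this value. Among the 22891 probe sets with a signal of at least 100 in the brighter group, 29 differed at least 2-fold in 1 genotype and at least 2-fold the other way in the other.

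The genes that mark the divide were on opposite sides of it. *MADS14*, *MADS15*, *Hd3a* and *HSP18.6* were lower in replicate 1 of both genotypes, and *PRR37*, *CAB2R* and *TIP1-2* were higher.

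**Figure D1:**
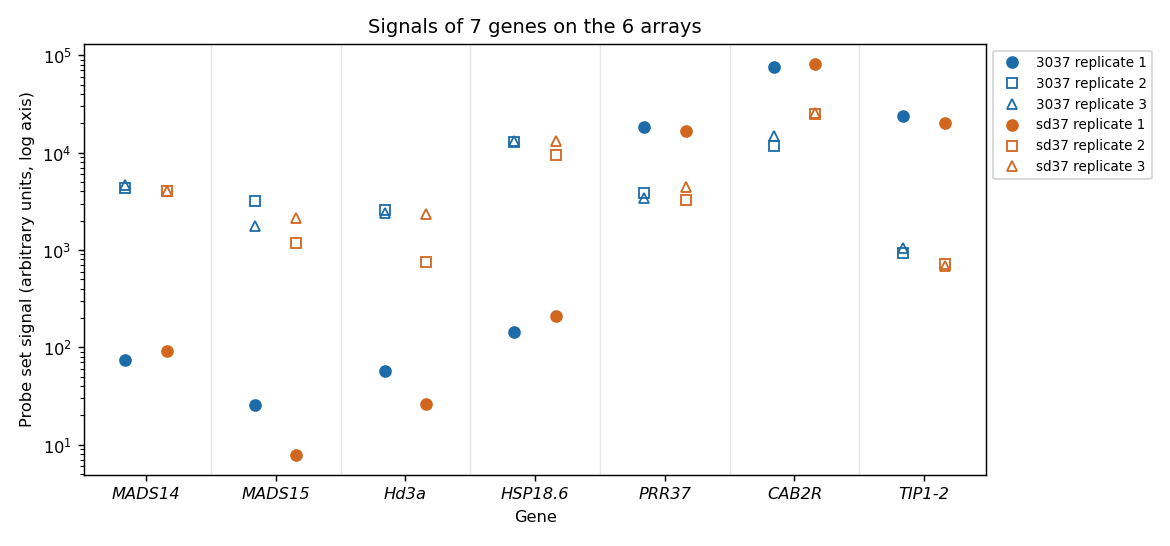
Probe set signal (arbitrary units, log axis) of 7 genes on each of the 6 arrays. Colours give the genotype, filled circles are replicate 1, open squares replicate 2 and open triangles replicate 3. For each gene both filled circles lie clear of all 4 open symbols, below them for *MADS14*, *MADS15*, *Hd3a* and *HSP18.6* and above them for *PRR37*, *CAB2R* and *TIP1-2*.

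The genes of the floral transition gave some of the widest separations, and these were on the low side of replicate 1. *Hd3a*, the rice florigen, had a signal of 57.4 in replicate 1 of 3037 against 2594 and 2427 in replicates 2 and 3, and of 26.3 in replicate 1 of *sd37* against 759 and 2319. The arrays of replicates 2 and 3 were thus bright in both genotypes, with replicate 2 of *sd37* the dimmest of them, and no array of replicate 1 came near them. The difference was -5.55 (SE 0.37), or 47.0-fold.

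*MADS14*, an *APETALA1/FRUITFULL*-like gene that acts at the apex downstream of florigen, had signals of 74.7, 4362 and 4620 in replicates 1, 2 and 3 of 3037. In *sd37* the signals were 90.9, 4066 and 4020. The difference was -5.69 (SE 0.14), and the other probe sets of the gene also ran low in replicate 1, down to -10.93. *MADS15*, its close relative, had signals of 25.4, 3152 and 1752 in 3037 and 7.8, 1172 and 2126 in *sd37*. Its difference was -7.10 (SE 0.35), with its probe sets between -7.83 and -1.02. *MADS18*, the third gene of this clade, had 1899, 10521 and 10726 in 3037 and 1227, 10178 and 12102 in *sd37*. It was thus well measured on all arrays and 7.11-fold lower in replicate 1 (difference -2.83, SE 0.16).

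Not all flowering genes shared this direction. Of the 20 genes of the list, 5 were lower in replicate 1, 3 were higher, and 12 were not called, with a median difference of -0.47. The lower share was 25%, against 11.8% of all genes. The higher share, 15%, was near the 14.9% of all genes. *DTH8*, which delays heading in long days, was higher in replicate 1, with 557, 90.8 and 55.5 in 3037 and 417, 146 and 96.5 in *sd37* (difference 2.39, SE 0.36). *MADS56*, a repressor of flowering in long days, had 9335, 3216 and 3834 in 3037 and 9051, 5649 and 5262 in *sd37*. Its 2.10-fold difference was 1.41 on the log2 scale in 3037 and 0.73 in *sd37*. The *SVP*-like gene *MADS47* was 2.40-fold higher, and without replicate 1 of 3037 its difference fell from 1.26 to 0.74. *MADS34*, which works with the *MADS14* clade in the inflorescence meristem, was the fifth gene called lower, at dim signals of 4.3, 112 and 78.0 in 3037 and 5.9, 14.3 and 35.1 in *sd37*. Its difference was -3.18 (SE 0.91), and -1.92 without replicate 1 of 3037. With equal medians the list had 10 lower and 1 higher genes.

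The other 12 members were not called. *MADS55*, a second *SVP*-like gene, had a difference of 0.01 (SE 0.10) at signals of 9867 to 12681, and *MADS22*, another one, had -0.45 (SE 0.10). *MADS50*, a promoter of flowering related to *SOC1*, had -0.19 (SE 0.21), with 0.21 in 3037 and -0.60 in *sd37*. *Ehd4* and *Hd16* were at -0.73 (SE 0.12) and -0.86 (SE 0.12), and *Ehd3* at -0.41 (SE 0.18), with -0.72 in 3037, -0.11 in *sd37* and its other probe sets down to -2.08. The SET-domain genes *SDG718* and *SDG723* had -0.49 (SE 0.12) and -0.17 (SE 0.11), and the probe sets of *SDG723* ran from -0.53 to 1.49. *Hd1*, a photoperiod gene, was dim, and its difference was -1.95 in 3037 and 0.51 in *sd37*. *SPL14*, *RCN1* and *MADS20* had signals of 41.9 or less on every array and gave no readable difference.

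Among the floral organ MADS-box genes, 4 of 15 were lower in replicate 1 (26.7%) and 3 were higher (20%), against 11.8% and 14.9% of all genes. Only 4 of the 15 reached a signal of 100 in the brighter group. *Lhs1* (*MADS1*), which specifies spikelet organs, had 24.4, 893 and 752 in 3037 and 85.6, 596 and 829 in *sd37*, a difference of -4.05 (SE 0.40). The class B genes *MADS2* and *MADS16* were lower by smaller amounts, with differences of -1.46 (SE 0.24) and -1.06 (SE 0.14). *DL*, which acts in carpels and in the leaf midrib, went the other way, with 73.6 and 152 in replicate 1 against 5.3 to 36.2 elsewhere. The class C genes *MADS3* and *MADS58* and the ovule gene *MADS13* stayed under a signal of 70 on every array. The median of the list was 0.77, above 0, since its dim members leaned up, and with quantile normalization it was -0.05.

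Genes of the shoot meristem and of young leaves were more often higher, 11 of 38, against 1 lower. These were 28.9% and 2.63%, against 14.9% and 11.8% of all genes, and 6 of the 11 had a signal of at least 100 in the brighter group. *YAB1* and *YAB2*, of the *YABBY* family of lateral organs, had differences of 2.18 (SE 0.33) and 1.5 (SE 0.15), and a second probe set of *YAB1* gave 0.41. *YAB5* of the same family was lower, with 420, 1238 and 1001 in 3037 and 321, 1103 and 709 in *sd37* (difference -1.43, SE 0.20). *LOG*, which releases active cytokinin in the shoot meristem, had 8420, 2914 and 2930 in 3037 and 9967, 3255 and 3644 in *sd37*, and the difference was 1.53 in both genotypes. With equal medians the counts of the list became 5 higher and 6 lower. Its median lay 0.67 above that of all genes, a gap that equal medians cannot change, as they shift all genes alike. With quantile normalization the gap was 0.23, with 9 genes higher and 1 lower.

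**Figure D2:**
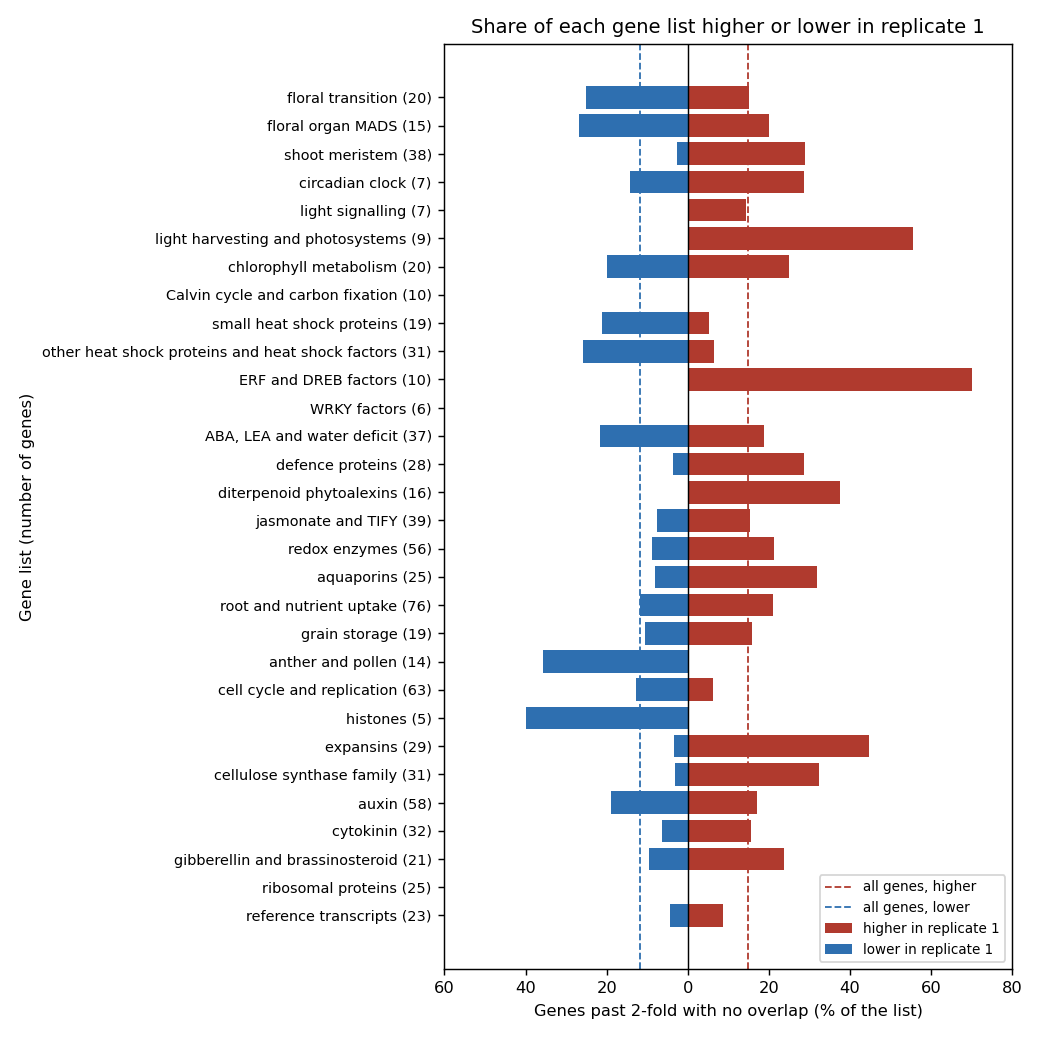
Share of the genes of each list that were higher (right, red) or lower (left, blue) in replicate 1, in percent of the list, with the number of genes in brackets. The dashed lines are the shares over all 17905 genes, 14.9% higher and 11.8% lower. ERF and DREB factors, light harvesting and expansins reach furthest right, and histones and anther genes furthest left.

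The 7 clock genes did not move as a block, with 2 higher, 1 lower and 4 not called. That was 28.6% higher and 14.3% lower, against 14.9% and 11.8% of all genes. *PRR37*, a pseudo-response regulator that also delays heading, had 18344, 3871 and 3405 in 3037 and 16552, 3239 and 4396 in *sd37*. Replicate 1 was 4.71-fold higher (difference 2.24, SE 0.14), and a second probe set of the gene differed by 0.15 only. *PRR73*, its paralog, had 20776, 5729 and 4460 in 3037 and 19545, 4623 and 5800 in *sd37* (difference 1.98, SE 0.14), and its other probe set gave 2.15. *GI*, a clock output gene upstream of *Hd1*, had 16300 and 15584 in replicate 1 against 7672 to 8625 elsewhere, a difference of 0.95 (SE 0.10) that stayed just under 2-fold. *PRR95* was at 0.54 (SE 0.12).

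*CCA1*, the dawn gene, had 21740 to 29806 on all 6 arrays and a difference of -0.24 (SE 0.11), which was -0.11 in 3037 and -0.36 in *sd37*. Its second probe set went the other way, at 1.49, so the gene has no settled direction. *PRR1* was the sole clock gene called lower, with 446, 956 and 982 in 3037 and 343, 856 and 1139 in *sd37*, a difference of -1.32 (SE 0.17). *PCL1*, the rice counterpart of *LUX*, was dim and had 0.38 (SE 0.32), with -0.30 under equal medians, where *PRR95* had -0.14. All 7 genes had the same sign in both genotypes. The median of the list was 0.54, and it was -0.14 with equal medians. Its gap to the median of all genes, 0.55, could not change under equal medians, which shift all genes alike. With quantile normalization the gap was 0.32. *PRR37*, *PRR73* and *PRR1* were called under either other scaling as well, with differences of 2.01, 1.71 and -1.21 after quantile normalization and of 1.56, 1.31 and -1.99 with equal medians.

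Genes of light harvesting stood higher in replicate 1 in both genotypes. Of 9 genes of the antenna and the photosystems, 5 were higher (55.6%, against 14.9% of all genes) and none was lower (against 11.8%). The median difference was 1.02 (0.99 in 3037 and 1.05 in *sd37*). *CAB2R*, a chlorophyll a/b-binding protein, had 76051, 11577 and 14832 in 3037 and 82318, 24860 and 25811 in *sd37*. The difference was 2.54 in 3037 and 1.70 in *sd37*, since replicates 2 and 3 were brighter in *sd37*. *RCABP69*, of the same family, had 50280, 4229 and 5273 in 3037 and 58412, 17534 and 14059 in *sd37* and was 6.29-fold higher (difference 2.65, SE 0.29). *LHCP* and the photosystem I gene *PSAH* followed at 1.46 (SE 0.12) and 1.76 (SE 0.11), and the Rieske protein gene *PETC* at 1.02 (SE 0.10).

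Other genes of photosynthesis were not called. The photosystem I gene *PSAG* had a difference of -0.04 (SE 0.11) at signals of 13929 to 16924, and the ferredoxin reductase gene *LFNR1* had 0.14 (SE 0.10). None of the 10 Calvin cycle and carbon fixation genes was called. Rubisco activase (*RCA*) had 0.82 (SE 0.11) and the Rubisco small subunit gene *RBCS* had 0.71 (SE 0.14), with its other probe sets up to 2.32. The list also held *CFBP1*, for the cytosolic fructose bisphosphatase, which lies outside the Calvin cycle. *CFBP1* had -0.63 (SE 0.11), with its other probe set at -1.49. Quantile normalization brought the light harvesting median to 0.19 and its calls to 3 of 9, and equal medians brought them to 0.35 and 3.

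Chlorophyll metabolism held calls on both sides. Of 20 genes, 5 were higher and 4 were lower, all with signals of at least 100 in the brighter group. These were 25% and 20%, against 14.9% and 11.8% of all genes. The higher genes all belong to synthesis. *PORA*, the protochlorophyllide oxidoreductase known for its abundance in dark-grown seedlings, had 7107 in replicate 1 of 3037 and 7160 in replicate 1 of *sd37*, against 2.3 and 2.6 in 3037 and 120 and 35.5 in *sd37*. Its difference of 9.14 (SE 0.93) rests on signals near the floor in 3037, so that only its direction and the replicate 1 level are well determined. *PORB*, the form that works in green leaves, was bright on all arrays, with 26590, 2824 and 3299 in 3037 and 26331, 3838 and 5265 in *sd37* (difference 2.84, SE 0.17).

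The magnesium chelatase subunit gene *CHLH* had 39209, 6015 and 7522 in 3037 and 42337, 10368 and 11802 in *sd37* (difference 2.24, SE 0.16), and a second probe set gave 0.28. *CHLP*, which makes the phytyl tail, had 45181, 6515 and 6747 in 3037 and 45766, 9728 and 10043 in *sd37*, 5.62-fold higher. *CHL9*, another chelatase subunit gene, was at 1.23 (SE 0.33), and *HEMB* and *CAO* were at 0.97 (SE 0.14) and 0.71 (SE 0.11) without a call.

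The lower genes included 2 of chlorophyll breakdown. *SGR*, the stay-green gene that starts chlorophyll degradation, had 1266, 9860 and 10204 in 3037 and 861, 5999 and 6137 in *sd37*. It was 7.47-fold lower in replicate 1 (difference -2.90, SE 0.10), and its second probe set gave -3.21. *RCCR1*, a later enzyme of the same route, had 599, 2067 and 2339 in 3037 and 620, 1302 and 1508 in *sd37* (difference -1.53, SE 0.17). *CHLG*, the chlorophyll synthase, and *PSY3*, a phytoene synthase of carotenoid synthesis, were also lower, at -1.17 (SE 0.15) and -1.20 (SE 0.11), and neither belongs to breakdown. *NYC1* and *NOL*, which act on chlorophyll b, were not called, with 0.55 (SE 0.21) and 0.02 (SE 0.12). Among photoreceptors, *PHYC* was the sole call at 1.14 (SE 0.14). *PhyB* was at 0.86 (SE 0.11), and *PHYA*, the phytochrome that accumulates in the dark, was at -0.91 (SE 0.12).

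**Figure D3:**
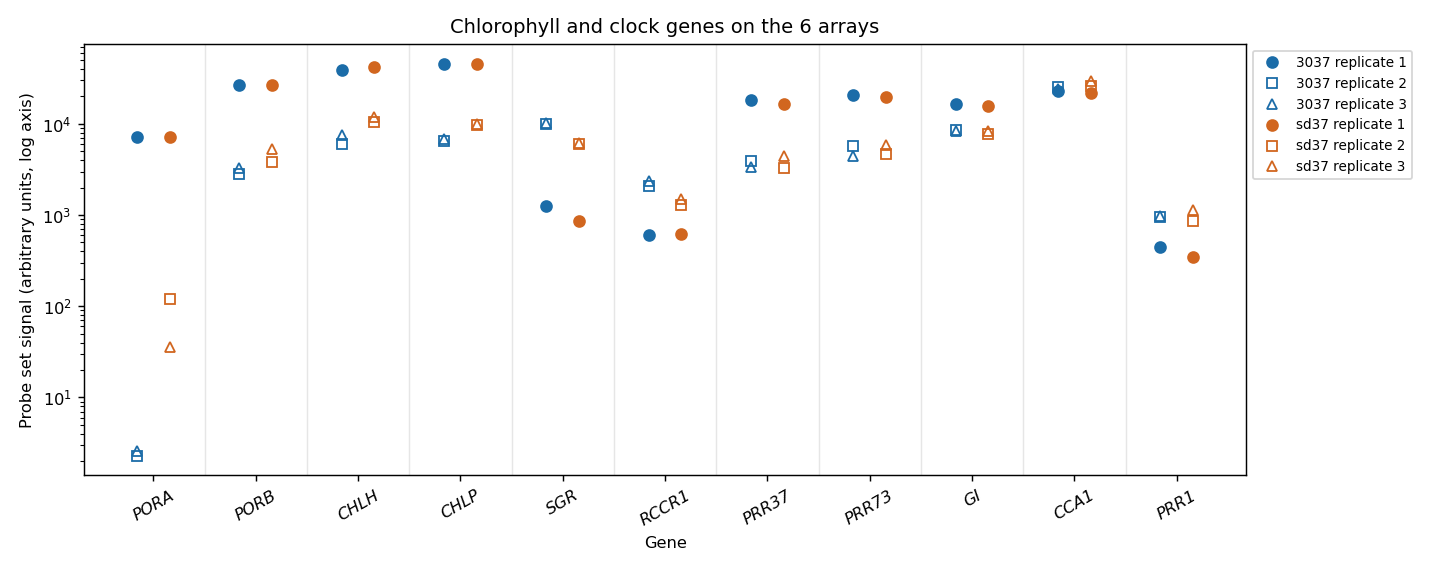
Probe set signal (arbitrary units, log axis) of 6 chlorophyll genes and 5 clock genes on each of the 6 arrays, with colours and symbols as for the plot of the marker genes. The replicate 1 circles lie above the other symbols for the synthesis genes *PORA* to *CHLP*, *PRR37*, *PRR73* and *GI*, below them for *SGR*, *RCCR1* and *PRR1*, and just below them for *CCA1*.

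Among heat shock genes, calls were more often lower than higher in replicate 1. *HSP18.6*, a small heat shock protein, had 144, 12830 and 13055 in 3037 and 209, 9480 and 13163 in *sd37*. Replicates 2 and 3 were bright in both genotypes, and replicate 1 was 69.5-fold lower (difference -6.12, SE 0.19), with the 3 probe sets of the gene between -6.62 and -4.53. *HSP17.4* and *HSP26.2* followed at -2.50 (SE 0.26) and -2.48 (SE 0.26). *HSP23.2* was lower by 5.01 in 3037 and by 1.06 in *sd37*, with 7.3, 208 and 266 in the wild type and 41.4, 98.2 and 76.0 in the mutant.

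*HSP18.8* ran the opposite way, with 15921, 341 and 526 in 3037 and 9484, 851 and 664 in *sd37*, a difference of 4.44 (SE 0.32). *HSP17.9B*, at signals of 4417 to 6132, had -0.03 (SE 0.12). Of the 19 small heat shock genes, 4 were lower, 1 was higher and 14 were not called, and 7 never reached a mean signal of 100. The lower share was 21.1% and the higher share 5.26%, against 11.8% and 14.9% of all genes. The median of 0.62 gave no direction for the family, as it was -0.16 in 3037 and 0.39 in *sd37* alone, and -0.05 with equal medians.

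Of 31 other heat shock genes and heat shock factors, 8 were lower (25.8%) and 2 were higher (6.45%), with a median of -0.38. Of all genes, 11.8% were lower and 14.9% higher. *HSFB2A*, a heat shock factor, had 760, 3448 and 3087 in 3037 and 559, 3455 and 2771 in *sd37* (difference -2.28, SE 0.14). The chaperone genes *CLPB-M* and *CLPD1*, whose products act on misfolded proteins, were at -2.50 (SE 0.35) and -1.98 (SE 0.14). *HSFA6B* was at -2.81 (SE 0.60), with -4.23 in 3037 and -1.40 in *sd37*.

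**Figure D4:**
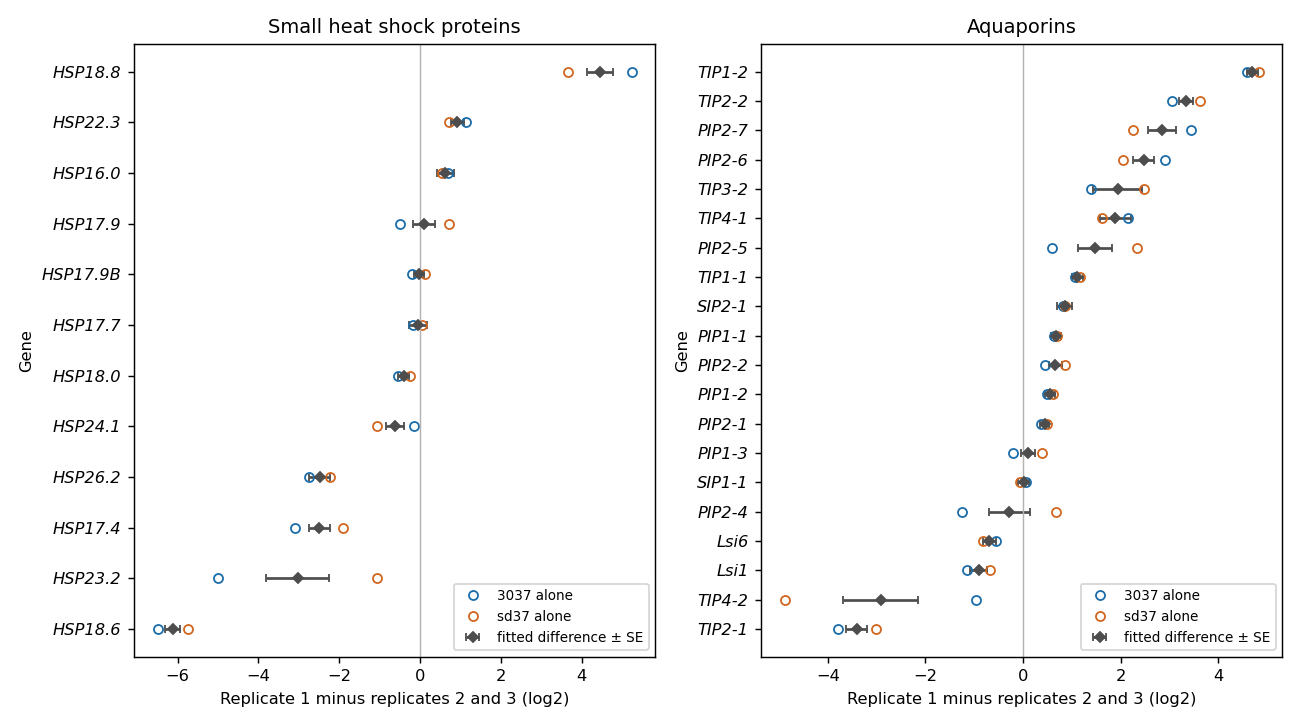
Replicate 1 minus replicates 2 and 3 (log2) for small heat shock genes (left) and aquaporin genes (right) with a mean signal of at least 100 in the brighter group. Diamonds are the fitted difference with its SE, and open circles are the difference in 3037 (blue) and *sd37* (orange) alone. Both families hold genes on either side of 0, with *HSP18.6* and *HSP18.8*, or *TIP2-1* and *TIP2-2*, far apart.

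Cold and drought factors of the DREB type were higher in replicate 1. Of 10 ERF and DREB genes, 7 were higher (70%, against 14.9% of all genes) and none was lower (against 11.8%), with a median of 2.04. *DREB1G* had 1056, 48.4 and 30.5 in 3037 and 852, 31.6 and 7.6 in *sd37*, so that replicate 1 was bright in both genotypes and the other arrays were dim (difference 5.28, SE 0.59). *DREB1B* had 327 and 173 in replicate 1 against 5.5 to 51.3 elsewhere, and *DREB1E* had 189 and 170 against 2.0 to 38.2. *DREB2A*, a factor of drought and heat responses, was 2.39-fold higher, while *DREB2B* had 0.13 (SE 0.14). Several members were dim on most arrays, and under either other scaling 4 of the 10 were higher and none was lower. None of the 6 WRKY genes was called, and 3 of them had the same sign in both genotypes. *WRKY76* had 1883, 262 and 142 in 3037 and 459, 2148 and 79.4 in *sd37*, so replicate 1 was the highest array in 3037 only.

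Genes of abscisic acid and water deficit divided almost evenly, with 7 of 37 higher and 8 lower. The shares were 18.9% and 21.6%, against 14.9% and 11.8% of all genes. The SnRK2 kinases, which relay the abscisic acid signal, lay on both sides. *SAPK9* had 261, 3049 and 3939 in 3037 and 212, 2033 and 2481 in *sd37*, a difference of -3.57 (SE 0.16). *SAPK2* had 4887, 1005 and 800 in 3037 and 4010, 1282 and 922 in *sd37*, a difference of 2.16 (SE 0.19). The RAB16 dehydrins, which accumulate in drying tissue, did so too. *RAB21* (*RAB16A*) was at -2.33 (SE 0.47), whereas *RAB16B* and *RAB16C* were at 2.78 (SE 0.92) and 2.94 (SE 0.56). These higher values leaned on 1 genotype each. *RAB16B* had 1.25 in 3037 and 4.31 in *sd37*, and *RAB16C* had 4.05 and 1.84. *SALT*, a lectin induced by salt, had 1619, 50.4 and 65.7 in 3037 and 2184, 707 and 49.9 in *sd37*. The median of the list, -0.43, was -0.08 in *sd37* alone.

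Defence genes were higher more often than lower, 8 of 28 against 1. The shares were 28.6% and 3.57%, against 14.9% and 11.8% of all genes. The chitinase genes *Cht2* and *Cht6* had differences of 3.11 (SE 0.26) and 4.23 (SE 0.41), with the probe sets of *Cht2* between 1.53 and 3.35. *Cht2* had 17403, 2180 and 1709 in 3037 and 17292, 3060 and 1416 in *sd37*. *PBZ1*, a pathogenesis-related protein of the PR10 family, had 26233, 6160 and 3702 in 3037 and 44038, 10763 and 11065 in *sd37*, 4.71-fold higher. *RBBI3.3*, a Bowman-Birk proteinase inhibitor, had 681 and 2729 in replicate 1 against 3.8 to 132 elsewhere.

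Of 16 genes for diterpenoid phytoalexins, the antimicrobial compounds of rice, 6 were higher (37.5%) and none was lower, with a median of 1.53. Of all genes, 14.9% were higher and 11.8% lower. Among the genes for momilactone, *KS4* was at 3.83 (SE 0.56), *CPS4* at 3.43 (SE 0.65), *CYP99A2* at 3.24 (SE 0.26) and *MAS* at 2.22 (SE 0.56). *CYP99A3* of the same group was at 1.83 (SE 0.32) and was not called, since its replicate 1 signal of 324 in 3037 lay under 1 of the *sd37* arrays. *CPS2*, the entry to the phytocassanes, had 1325, 161 and 128 in 3037, where replicate 1 was the highest array, and 1637, 2618 and 1526 in *sd37*, where it lay between the others. The test of this gap between genotypes missed the threshold (limma interaction, adjusted p = 0.573).

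Of 39 jasmonate and TIFY genes, 6 were higher and 3 were lower, or 15.4% and 7.69% against 14.9% and 11.8% of all genes. The list as a whole thus had no excess of lower genes and a share of higher genes near that of all genes. Of the 6 higher genes, 3 had a signal of at least 100 in the brighter group. The lipoxygenase gene *CM-LOX1* had 1743 and 2275 in replicate 1 against 40.7 to 191 elsewhere. *OPR1*, an oxophytodienoate reductase, was lower, with 633, 3972 and 4160 in 3037 and 494, 1044 and 1726 in *sd37*. The receptor gene *COI1A* was at -1.11 (SE 0.10).

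The redox list held large changes on both sides, 12 of 56 higher and 5 lower, or 21.4% and 8.93% against 14.9% and 11.8% of all genes. The glutaredoxin *GRXC1* had 15685, 422 and 553 in 3037 and 21586, 170 and 107 in *sd37*, a difference of 6.17 (SE 0.44), and its relatives *GRXC10* and *GRXC15* were at 5.90 (SE 0.69) and 3.80 (SE 0.30). *GRXC7* of the same family was at -2.14 (SE 0.22). *CATA*, a catalase that removes hydrogen peroxide, had 35306, 1980 and 2208 in 3037 and 46210, 3569 and 2411 in *sd37*, 16.3-fold higher, and its 3 probe sets gave 3.98 to 5.17. The glutathione transferase *GSTF1* had 215, 5557 and 5980 in 3037 and 128, 4143 and 5508 in *sd37*, 31.6-fold lower (difference -4.98, SE 0.16).

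Aquaporins are water channels, among them those of the plasma membrane (PIP) and of the vacuole (TIP). In their list of 25 genes, 8 were higher (32%) and 2 were lower (8%), against 14.9% and 11.8% of all genes. The list, matched by name, also held NIP, SIP and silicon transporter genes. Of the latter, *Lsi2* is not an aquaporin, and it was dim and not called. *TIP1-2* had 23704, 938 and 1049 in 3037 and 19971, 725 and 682 in *sd37*, a difference of 4.70 (SE 0.12) that was 4.58 in 3037 and 4.83 in *sd37*. *TIP2-2* had 36518, 4226 and 4508 in 3037 and 39594, 3033 and 3442 in *sd37*, 10.1-fold higher. Its paralog *TIP2-1* was 10.6-fold lower, with 87.5, 1222 and 1213 in 3037 and 91.4, 680 and 802 in *sd37*. The plasma membrane genes *PIP2-7* and *PIP2-6* were at 2.85 (SE 0.28) and 2.47 (SE 0.21), while *PIP1-3*, among the brightest, was at 0.10 (SE 0.15). *TIP4-2*, the other lower gene, was at -0.96 in 3037 and -4.88 in *sd37*. The median of the list, 0.44, was -0.18 with quantile normalization and -0.23 with equal medians, so no direction is given for the family.

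Cell wall loosening genes were often higher. Of 29 expansin genes, 13 were higher and 1 was lower, or 44.8% and 3.45% against 14.9% and 11.8% of all genes. The median was 1.38, and with equal medians there were 8 and 2. Many members were dim: 11 of the 29 reached a signal of 100 in the brighter group, among them 7 of the 13 higher genes. *EXLA1* had 10122, 1101 and 1132 in 3037 and 11014, 961 and 1116 in *sd37* (difference 3.30, SE 0.12), and *EXLA2* was at 4.16 (SE 0.35). Among cellulose synthase-like genes, *CSLH1* was at 2.09 (SE 0.17). Of 63 cell cycle and replication genes, 8 were lower and 4 were higher, or 12.7% and 6.35% against 11.8% and 14.9% of all genes, with a median of 0.03. The replication genes *RFC4* and *ORC4* were at -3.20 (SE 0.19) and -2.29 (SE 0.23), and the A-type cyclin *CYCA2-1* was at -3.78 (SE 0.38). Of 5 histone genes, 2 were lower (40%, against 11.8% of all genes), with *H2B.10* at 239 and 222 in replicate 1 against 833 to 2225 elsewhere.

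Hormone genes showed single large differences within lists of no clear direction. Of 58 auxin genes, 10 were higher and 11 were lower, or 17.2% and 19% against 14.9% and 11.8% of all genes. *GH3.2*, which conjugates auxin, had 145, 4827 and 5145 in 3037 and 280, 1116 and 2860 in *sd37*, 14.8-fold lower. The auxin response factor *ARF16* had 129, 1539 and 1740 in 3037 and 104, 1175 and 1670 in *sd37*, 13-fold lower. *CKX3*, a cytokinin oxidase, was at 2.83 (SE 0.43), and *CPS1*, the first enzyme of gibberellin synthesis, at 3.77 (SE 0.68). Of the brassinosteroid genes, the synthesis gene *CYP90A4* was at 1.80 (SE 0.16) and *CYP85A1*, which acts late in synthesis, at -1.72 (SE 0.12).

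The samples were checked for other tissues by summed signals. The light harvesting list summed to 393819 and 443288 in replicate 1 against 151948 to 209573 elsewhere, so green tissue was present on every array. The root and nutrient uptake list summed to 150483 and 150871 against 135064 to 142278, with 16 of 76 genes higher and 9 lower. These were 21.1% and 11.8%, against 14.9% and 11.8% of all genes. At a signal of at least 100 in the brighter group, 12 were higher and 8 lower. *NAS3*, for the metal chelator nicotianamine, had 4752 and 2399 in replicate 1 against 118 to 308 elsewhere, and the ammonium transporter *AMT2-1* had 802 and 967 against 59.0 to 152. On the low side, *AMT1-2* had a difference of -1.77 and *IRO3* of -1.65, so the list gave no single direction. The anther and pollen list summed to 740 and 917 against 1770 to 2133. In it, 5 of 14 genes were lower (35.7%, against 11.8% of all genes) and none was higher (against 14.9%). Of the 14, 3 reached a signal of 100 in the brighter group, so the sums rest on few genes. *GAMYB* was the brightest on every array, with 330 and 471 against 794 to 1032. *MSP1* had 223 and 208 against 419 to 532. *TDL1A*, related to an anther cell fate factor of *Arabidopsis*, had 36.9 and 8.4 against 276 to 447. The grain storage list summed to 18677 and 19850 against 14124 to 17893. The floral organ list summed to 1500 and 1421 against 2786 to 3634. The part that a different mix of organs plays in the differences was not tested.

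Genes of basic functions were rarely called. None of the 25 ribosomal protein genes was called, with a median of -0.03, and with equal medians 2 were lower. Of 23 reference transcripts, 2 were higher (8.7%) and 1 was lower (4.35%), against 14.9% and 11.8% of all genes. All of these called genes are tubulin genes. *TUB4* and *TUB7* were at 2.05 (SE 0.19) and 1.32 (SE 0.13), and *TUB2* was at -1.89 (SE 0.16).

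Over all genes with a name, a few outside the lists also stood among the 8 widest in either direction at a signal of at least 500. *BURP2*, which encodes a BURP-domain protein, had 41900, 91.0 and 84.0 in 3037 and 59128, 1532 and 897 in *sd37*, a difference of 7.28 (SE 0.58). *BURP16* of the same family had 664 and 1018 in replicate 1 against 3.3 to 21.3 elsewhere. *C3H54*, a zinc finger gene, had 10114 and 5984 against 58.8 to 226. On the low side, *BBD1* had 118, 9227 and 10585 in 3037 and 206, 7906 and 7730 in *sd37*, a difference of -5.82 (SE 0.22). The Argonaute gene *AGO1D* had 42.2 and 7.5 against 687 to 1206, and the nucleoredoxin gene *Nrx2* had 388 and 444 against 6353 to 10069.

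Whether the replicate 1 difference itself differed between 3037 and *sd37* was tested for each probe set as the interaction of genotype and replicate 1. The grouping had been chosen on a difference seen in both genotypes. That choice favours agreement between them, so the test is not independent of it. With limma and Benjamini-Hochberg adjustment, 0 of 57258 probe sets (0%) passed an adjusted p of 0.05 with a 1.5-fold difference, and 4676 (8.17%) had an unadjusted p under 0.05. The smallest adjusted p was 0.322. The fit had 2 residual degrees of freedom per probe set, and replicate 1 had 1 array per genotype, so a miss does not show that the genotypes behaved alike. A fit with the replicate number as a block has fewer residual degrees of freedom still, and a pairing by number could not be shown. Probe sets that pass in the block fit, and their adjusted p, are therefore not read as gaps between genotypes. With the replicate number as a block, 5 probe sets passed.

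The named genes of smallest p showed what a gap between genotypes looked like here. *RR9*, a cytokinin response regulator, had 4973, 8396 and 10336 in 3037 and 6577, 1892 and 2556 in *sd37*. Replicate 1 was thus the lowest array of 3037 and the highest of *sd37*, and the differences were -0.91 and 1.58 (limma interaction, adjusted p = 0.573, and 0.045 with the block). *RR6*, of the same family and named here after its values were seen, had 2666, 4923 and 7287 in 3037 and 3578, 1159 and 1649 in *sd37* (adjusted p = 0.573, and 0.045 with the block). *BURP3* had 9.9, 330 and 320 in 3037 and 97.6, 93.0 and 124 in *sd37*, so only 3037 showed a lower replicate 1. *JAZ10*, a repressor of jasmonate signalling, had 2021, 671 and 757 in 3037 and 451, 505 and 536 in *sd37*. *NAC067* was lower by 1.0 in 3037 and by 2.43 in *sd37* on the log2 scale, and *BURP2* was higher by 8.90 and by 5.66, so both kept their direction. The adjusted p of these 4 genes was 0.573 in the limma fit without the block. The other probe sets called with the block were 1 of *MADS14*, where replicate 1 of 3037 lay at the floor of 1 and that of *sd37* at 25.8, and 2 without a gene name.

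**Figure D5:**
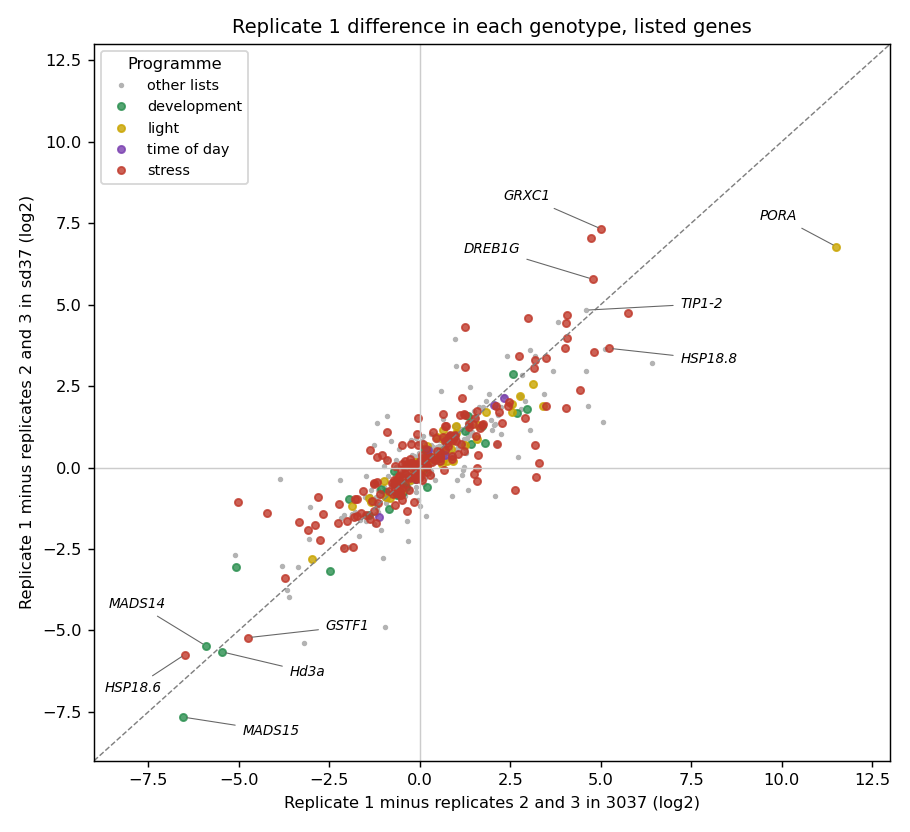
Replicate 1 minus replicates 2 and 3 (log2) in 3037 (x axis) and in *sd37* (y axis) for the listed genes with a mean signal of at least 100 in the brighter group. Each point is a gene, coloured by programme, and the dashed line marks equal differences. The labels name genes far from 0, with *MADS15*, *HSP18.6* and *MADS14* at the lower left and *GRXC1*, *DREB1G* and *PORA* at the upper right.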

How the data were processed

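Total RNA from seedlings was labelled, hybridized to Affymetrix rice arrays and scanned by a service. The deposited values are probe set intensities on a linear scale, which the authors received pre-processed and normalized; no source used here names the algorithm. The labels name a column kit and the methods guanidinium with phenol for extraction. Of 57381 probe sets, 123 controls were left out, signals under 1 (1.77%) were set to 1, and log2 was taken. No detection calls were used, and precision is limited by the few arrays.

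R 4.3.3 and limma 3.58.1 (lmFit, eBayes with an intensity trend) were used across all probe sets, with genotype and replicate 1 as terms and their interaction as the sole tested term, after a check on simulated data. The platform table names 1 gene for 22436 probe sets and several for 95, which were left out, and all 22436 matched the RefSeq table ASM3414082v1, whose synonyms gave the names. The 30 gene lists were matched by name.

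The grouping, the lists and the rule for named genes were chosen with earlier results of these data known. Named genes are the 7 marker genes, up to 4 called members per list of largest difference with a signal of at least 100, the 8 largest differences in each direction over genes with a name at a signal of at least 500, the 5 named genes of smallest interaction p, and any member of the flowering and clock lists. Other members are named to show the spread of a list after their values were seen.

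Deviations from the genotype means correlated with r = 0.394, 0.134 and 0.16 for same-numbered replicates 1, 2 and 3. As all lay above 0.1, the replicate number was also used as a block. Deviations sum to 0 within a genotype, so the replicate 1 divide, on which the grouping was chosen, by itself pushes these values above 0. They therefore cannot show a pairing by number, and the block is only an alternative fit. Replicate 2 of 3037 with replicate 3 of *sd37* gave 0.164 and the reverse 0.13, so replicates 2 and 3 were no more alike within a number than across numbers. The labels call the samples biological replicates and do not say what a number shares. Alternatives were a floor of 16, quantile normalization, equal medians, a filter at the median signal, a 4-fold limit, no intensity trend, the mean over the probe sets of a gene, and each array left out.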

Additional observations from a re-analysis of the deposited data

How the results depend on the processing

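With quantile normalization 6566 probe sets were higher in replicate 1, with equal medians 5022 were higher and 11592 lower, among probe sets at or above the median signal 4714 were higher, and at a 4-fold limit 5596 were higher and 1629 lower. Leaving out 1 array at a time gave 12520 to 16608 higher and 5045 to 6653 lower, with fewer arrays left to overlap. The interaction count of 0 became 5 with the replicate block and 4543 with a floor of 16, where 4170 of these had replicates 2 and 3 of a genotype at 1 value. It was 0 with any 1 array of replicates 2 and 3 left out.

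With equal medians the list medians were -1.14 for floral transition, -0.14 for the clock, 0.35 for light harvesting, -0.05 for small heat shock proteins, -0.23 for aquaporins and -1.10 for water deficit. With quantile normalization they were 0.21 for the clock, 0.19 for light harvesting, 0.14 for small heat shock proteins and -0.18 for aquaporins. A floor of 16 gave 0.00 for small heat shock proteins. With each array left out, floral transition lay between -0.53 and -0.40, the clock between 0.45 and 0.69, light harvesting between 0.97 and 1.06, small heat shock proteins between -0.16 (without *sd37* replicate 1) and 0.55, aquaporins between 0.41 and 0.70, and water deficit between -0.53 and -0.08 (without 3037 replicate 1). Apart from these constructions the cause was not tested. Single genes were followed for 196 of the called genes only. These were list members with a signal of at least 100, called flowering and clock genes, and the widest differences over all genes, so most dim calls were not covered. Of these 196, 0 changed sign under another floor or scaling or with 1 array left out. With 1 array left out, 22 of them moved by over 1.5 times. A call puts both replicate 1 arrays beyond all others, so a higher floor or 1 array left out could not reverse it. Equal medians moved all differences by less than the 2-fold limit. The 0 thus bears on quantile normalization only. Of the 16 other flowering and clock genes, 5 changed sign with 1 array left out (*Hd1*, *SPL14*, *MADS50*, *MADS55* and *MADS20*) and 4 under another floor or scaling (*PCL1*, *PRR95*, *MADS55* and *RCN1*). Dim signals limit all counts.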
